A study of Mus musculus with 27 samples.

Results

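Wild-type embryoid bodies at day 10 were compared with wild-type embryoid bodies at day 3, to see which genes rose and fell as aggregates of differentiating stem cells passed from an early, gastrulation-stage pattern to one that holds several tissues. The members were chosen by their labels: the 3 libraries labelled wild type at time 10 and the 3 labelled wild type at time 3, which is 6 of the 27 libraries of the series. All 6 were made from E14, a mouse embryonic stem cell line widely used for gene targeting, with no agent or engineered allele named for them. The series also holds the same line at day 0, a Quaking knockout (KO) line and a Sam68 KO line of E14 background at days 0, 3 and 10, with biological triplicates in each of its 9 groups. Each line is a single line, and an embryoid body is a mixture of cells. In such bulk RNA, fewer cells of a type and less RNA per cell cannot be told apart.

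Embryoid bodies form when embryonic stem cells are taken out of the conditions that hold them in self-renewal and are left to aggregate. The cells first resemble the epiblast, then express genes of the primitive streak, the structure through which cells of the gastrulating mouse embryo move to become mesoderm and endoderm. Later bodies commonly contain yolk sac-like endoderm, primitive blood, vessels, beating heart muscle and connective tissue, without the spatial order of an embryo. The labels give the cell type of every library as embryonic stem cells, whatever the day. At day 10 the summed level of 16 genes of the core pluripotency list lay between 602 and 669 CPM (read counts scaled to a common library size), against 4235 to 4449 CPM at day 3 and 6658 to 6767 CPM at day 0, so that the label names the starting line and not the state of the day 10 cells.

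The library sizes behind CPM were scaled by TMM, a method that corrects for differences in RNA composition. The test was the quasi-likelihood test of edgeR, and a gene was called at a Benjamini-Hochberg adjusted p under 0.05. Of 21060 genes tested, 16026 were called (76.1%), 8331 of them higher at day 10 (39.6%) and 7695 lower (36.5%), and 5034 did not pass. A change of at least 2-fold was also seen in 8386 called genes (39.8%), of which 5147 were higher (24.4%) and 3239 lower (15.4%). The median log2 fold change (log2FC, day 10 over day 3) of all genes tested was 0.02. The shares of all genes are the background against which every count of a gene list below has to be read. Rises were larger than falls: 1941 called genes were at least 8-fold higher and 425 at least 8-fold lower, while 956 were at least 32-fold higher and 42 at least 32-fold lower. The values of 303 tested genes were 0 in all 3 day 3 libraries, and those of 60 were 0 in all 3 day 10 libraries.

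**Figure D1:**
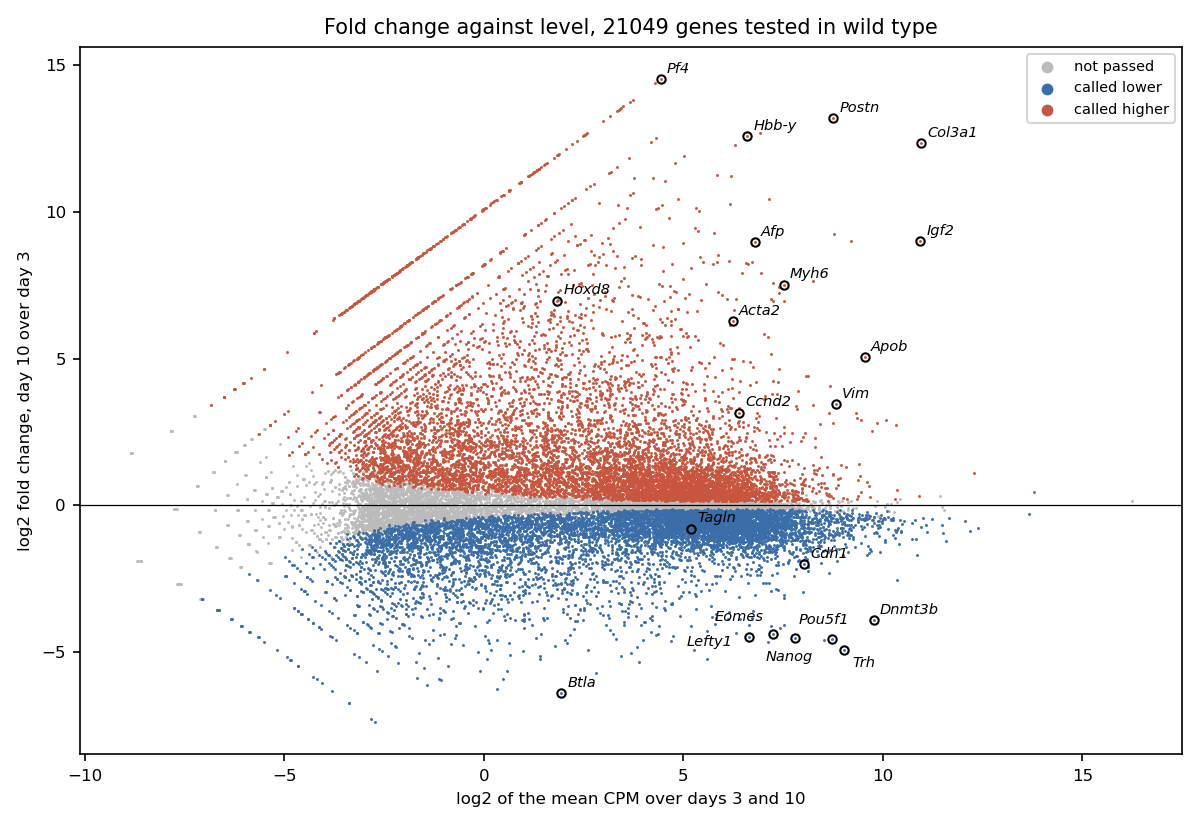
Log2 fold change of day 10 over day 3 (vertical axis) against the log2 of the mean CPM of the 6 libraries (horizontal axis), 1 point per tested gene with a count at either day. Coloured points are called genes and grey points are not. The diagonal lines of points are genes with 0 or a few counts at 1 of the days, whose fitted values depend on a small constant added by the fit. More genes lie beyond 8-fold above the zero line (1941) than below it (425).

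The libraries were deep and similar in total count. The total count per library was 66509148 to 69184884 at day 3 and 66399271 to 71345094 at day 10. Replicates were close in logged CPM across genes (Pearson r of 0.9951 to 0.9957 at day 3 and 0.992 to 0.9957 at day 10, a description over genes, which are not independent replicates), but the common coefficient of variation was larger at day 10 (12.9%) than at day 3 (5.63%). Day 10 replicate 1 stood apart from the other day 10 libraries in some genes. Foxa1, of the definitive endoderm list, was at 11.5 CPM there and at 3.84 and 4.97 CPM in the others. Without day 10 replicate 1, 16663 genes were called, against 15427 to 15809 without any other single library. It also stood apart in the mitochondrial ribosomal RNA mt-Rnr1. Levels of mt-Rnr1 were 4013, 3064 and 2423 CPM at day 3 and 12845, 3828 and 3576 CPM at day 10, and its rise (log2FC 1.09 ± 0.39 (SE), adjusted p = 0.0201) became 0.23 with an adjusted p of 0.159 without that library. The call was also lost without day 3 replicate 2 (adjusted p = 0.0563), without day 3 replicate 3 (adjusted p = 0.0763) and with DESeq2 (adjusted p = 0.0704). Transcripts of the mitochondrial genome made up 6.5 to 10.7% of counts at day 3 and 9.4 to 11.4% at day 10, with replicate 1 the highest at each of these days.

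Of the transcription factors that hold embryonic stem cells in the pluripotent state, Pou5f1 and Nanog were still high at day 3 and low at day 10. All 16 genes of the core pluripotency list were called lower, each by at least 2-fold, with a median log2FC of -3.83 against 0.02 for all genes. Pou5f1 (Oct4), the POU factor required for pluripotency, was at 766, 815 and 839 CPM at day 3 and at 34.7, 29.8 and 38.2 CPM at day 10, a 23.6-fold fall (log2FC -4.56 ± 0.10, adjusted p = 2.27e-13). Nanog, a homeodomain factor of the same network, was at 428, 423 and 429 CPM and then at 18.1, 15.8 and 21.5 CPM. Tdgf1 (Cripto), the Nodal co-receptor, went from 675, 724 and 707 CPM to 28.7, 26.4 and 32.5 CPM. For these genes the libraries of the 2 days lay far apart, while the 3 replicates of a day differed little.

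The other members of the pluripotency list fell less. Sox2, partner of Oct4 and also a factor of neural progenitors, had already fallen by day 3, from 230 to 239 CPM at day 0. It was at 84.6, 81.2 and 78.2 CPM at day 3 and at 22.2, 23.2 and 25.9 CPM at day 10 (log2FC -1.77 ± 0.07, adjusted p = 4.17e-11). Lin28a, which blocks maturation of the let-7 microRNA, fell 3-fold from 593, 599 and 600 CPM to 206, 200 and 190 CPM. Zfp42 (Rex1), a marker of naive pluripotency, had been at 614 to 637 CPM at day 0, and was at 30.1, 31.5 and 29.1 CPM at day 3 and 2.94, 4.51 and 5.26 CPM at day 10. Dnmt3l, a cofactor of de novo DNA methylation, showed a like order of levels, with 370 to 394 CPM at day 0, 20.1 to 25.1 CPM at day 3 and 1.29 to 1.89 CPM at day 10. Most of the fall of these naive genes had come before day 3, whereas Pou5f1 stood at 933 to 994 CPM at day 0.

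Genes of the formative epiblast, the state that follows naive pluripotency, had a summed level of 3190 to 3376 CPM at day 3, against 1306 to 1337 CPM at day 0 and 988 to 1063 CPM at day 10. Of 16 list members, 13 were called lower at day 10 and 2 higher, with a median log2FC of -2.11. Fgf5, a growth factor that marks the epiblast, was at 0.0951 to 0.345 CPM at day 0, at 95.6, 114 and 102 CPM at day 3 and at 7.31, 5 and 6.52 CPM at day 10 (log2FC -4.05 ± 0.15, adjusted p = 2.61e-11). Dnmt3b, a de novo DNA methyltransferase, reached 1717, 1555 and 1638 CPM at day 3 and was at 124, 87.3 and 112 CPM at day 10. Otx2, a homeodomain factor of the epiblast and anterior neuroectoderm, went from 118, 117 and 116 CPM to 17.3, 13.2 and 15.6 CPM. The members that rose were Sox4, a factor of many progenitor cells (log2FC 1.72 ± 0.07, adjusted p = 1.14e-10, with 54.1% of its sequence windows shared with other genes, so that its count is uncertain), and Dnmt3a, the second de novo methyltransferase (log2FC 0.79 ± 0.07). Tead2, a partner of YAP, did not pass (adjusted p = 0.435).

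Genes of the primitive streak had their highest summed level at day 3, 1425 to 1810 CPM against 141 to 160 CPM at day 0 and 168 to 182 CPM at day 10. Of 20 tested genes 12 were called lower, all by at least 2-fold, and 3 higher, with a median log2FC of -3.35. T (Brachyury), the T-box factor of nascent mesoderm, was at 0.254 to 0.706 CPM at day 0, at 208, 330 and 266 CPM at day 3 and at 12.2, 7.65 and 12.1 CPM at day 10, a 25.2-fold fall (log2FC -4.66 ± 0.22, adjusted p = 2.80e-10). Eomes, a T-box factor needed for definitive endoderm and early mesoderm, went from 253, 335 and 289 CPM to 15.8, 12.6 and 13.7 CPM. Mixl1, a homeodomain factor of the streak, went from 31.7, 74.1 and 49.1 CPM to 3.11, 1.6 and 2.35 CPM. Replicates of day 3 differed more for these streak genes than for Pou5f1, with day 3 replicate 1 the lowest for each of the 3.

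For 5 streak genes no difference passed the test. Foxa2, a forkhead factor of the node and endoderm, was at 23.1, 31.1 and 24.8 CPM at day 3 and 25.2, 26.6 and 24.5 CPM at day 10 (log2FC -0.05 ± 0.10, adjusted p = 0.661). Mesp1, a factor of early cardiac mesoderm, ranged from 0.775 to 3.98 CPM at day 3 and from 1.35 to 2.45 CPM at day 10, with overlapping libraries (adjusted p = 0.554), though without day 3 replicate 1 it was called lower (log2FC -0.68, adjusted p = 0.0367). Lhx1, Mesp2 and Snai1 did not pass either, and Mesp2 was called lower without day 10 replicate 1 (log2FC -0.76, adjusted p = 0.0436). The members called higher were Wnt3a and Tbx6, both near 1 CPM at day 10, and Cyp26a1, an enzyme that breaks down retinoic acid (log2FC 0.56 ± 0.18, adjusted p = 0.0133), whose call was lost with DESeq2 (adjusted p = 0.0518).

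**Figure D2:**
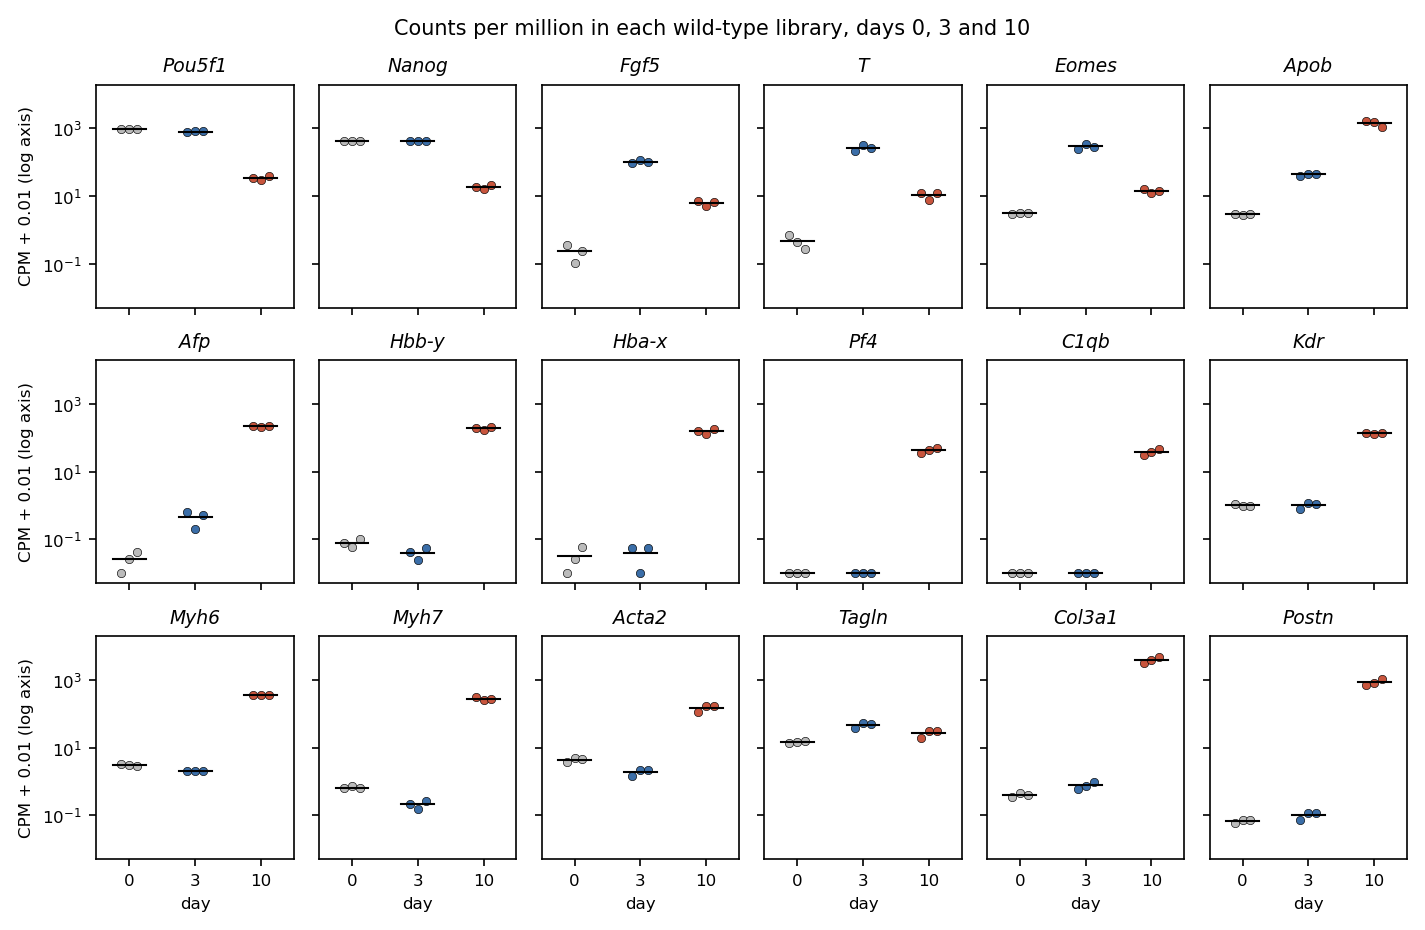
CPM of 18 genes in each wild-type library at days 0, 3 and 10, on a log axis after adding 0.01 CPM so that zeros can be drawn. Points are single libraries (3 a day) and bars are their means. Pou5f1 and Nanog are high until day 3, Fgf5, T and Eomes peak at day 3, and the blood, heart and matrix genes are far lower at day 3 than at day 10.

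Genes of definitive endoderm were mixed. Of 12 tested, 7 were higher, 2 lower and 3 did not pass, with a median log2FC of 0.93. Sox17, a factor of endoderm and of arterial endothelium, rose from 3.19, 4.39 and 3.78 CPM to 24.1, 24.6 and 23.9 CPM (log2FC 2.67 ± 0.10, adjusted p = 5.23e-11). Shh, a secreted morphogen of notochord and gut, had no count at day 3 and stood at 7.85, 6.14 and 7.35 CPM at day 10, at least 477-fold higher when a floor of 3 counts over the 3 day 3 libraries is put in place of 0. Trh, which encodes thyrotropin-releasing hormone, fell from 1063, 941 and 1021 CPM to 32.6, 28.3 and 37.9 CPM (log2FC -4.94 ± 0.12, adjusted p = 4.64e-13). Cer1, a secreted Nodal and BMP antagonist, had a log2FC of 0.70 and did not pass (adjusted p = 0.117), but it was called without day 3 replicate 2 (log2FC 1.35, adjusted p = 0.00359).

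Yolk sac endoderm supplies the early embryo with lipids and carrier proteins, and nearly its whole list was higher at day 10. Of 24 tested genes 23 were called higher (95.8%, against 39.6% of all genes), with a median log2FC of 4.01, and their summed level went from 1280 to 1311 CPM at day 3 to between 3746 and 4592 CPM at day 10. Apob, the structural protein of lipoprotein particles, rose from 40.2, 46 and 44.2 CPM to 1667, 1551 and 1132 CPM (log2FC 5.06 ± 0.14, adjusted p = 1.49e-12). Afp, alpha-fetoprotein, rose from 0.62, 0.189 and 0.515 CPM to 226, 217 and 222 CPM, a 504-fold difference. Apoa1, an apolipoprotein of high-density lipoprotein, was 207-fold higher, and Ttr, transthyretin, 25.5-fold higher. The replicates of day 10 were close for Afp, and the libraries of the 2 days did not overlap for any of these genes.

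Among the transcription factors of visceral endoderm, Hnf4a, a nuclear receptor that switches on apolipoprotein genes, rose 8.39-fold to 38.4, 39.5 and 33 CPM, and Gata4, a zinc finger factor of endoderm and heart, 6.39-fold to 157, 161 and 149 CPM. The endocytic receptor genes moved apart. Cubn (cubilin) rose from 198, 210 and 189 CPM to 553, 468 and 348 CPM (log2FC 1.20 ± 0.13, adjusted p = 1.53e-06). Its partner Lrp2 (megalin), a large receptor that takes up ligands with cubilin, fell from 514, 473 and 459 CPM to 234, 199 and 180 CPM (log2FC -1.24 ± 0.09, adjusted p = 2.42e-08), and was the 1 member of the list called lower.

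Basement membrane genes, which include those secreted by parietal endoderm, followed the same pattern. Of 24 tested, 23 were higher and Lama5 lower, with a median log2FC of 2.30. Lama1, the laminin alpha chain of early embryonic basement membranes, had been at 341 to 384 CPM at day 0 and went from 108, 109 and 108 CPM at day 3 to 609, 470 and 503 CPM at day 10 (log2FC 2.28 ± 0.09, adjusted p = 6.64e-11). Col4a1, a chain of the network-forming collagen IV, rose from 254, 255 and 262 CPM to 1950, 1860 and 1947 CPM. Lama5, the alpha chain of laminins of the later epithelia, fell from 548, 432 and 431 CPM to 250, 174 and 164 CPM (log2FC -1.26 ± 0.14). In the list of trophoblast genes 9 of 12 tested were higher, and the placental lactogen genes Prl3d1 and Prl3b1 did not reach the filter on low counts.

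The largest rises among abundant genes included those of blood. The first blood cells of the mouse form in the yolk sac and carry embryonic globins. Of 28 erythroid genes 24 were called higher, 3 lower and 1 did not pass, with a median log2FC of 3.89. Hbb-y, the embryonic epsilon-type beta globin, was at 0.031, 0.0146 and 0.0442 CPM at day 3 and at 195, 171 and 216 CPM at day 10 (log2FC 12.58 ± 0.18, adjusted p = 2.09e-14). Hba-x, the embryonic zeta-type alpha globin, was at 0.0465, 0 and 0.0442 CPM and then at 161, 127 and 186 CPM (log2FC 12.29 ± 0.28, adjusted p = 3.72e-13). Both lay at a few counts per library at day 3 and were among the 25 largest rises of genes whose mean reached 5 CPM at day 3 or day 10.

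Since both embryonic globin genes moved together, their promoter windows are shown for the sequence motifs of erythroid regulation. The windows hold 250 bases before and 50 after the annotated start (RefSeq, GRCm38.p6), Hbb-y at chr7:103853158-103853457 on the minus strand and Hba-x at chr11:32276350-32276649 on the plus strand. Capitals mark a CACCC-type motif (CTCCACCC), a GATA motif, TGATAA, which lies on the other strand in Hbb-y, and in Hbb-y also a CCAAT box.
Hbb-y: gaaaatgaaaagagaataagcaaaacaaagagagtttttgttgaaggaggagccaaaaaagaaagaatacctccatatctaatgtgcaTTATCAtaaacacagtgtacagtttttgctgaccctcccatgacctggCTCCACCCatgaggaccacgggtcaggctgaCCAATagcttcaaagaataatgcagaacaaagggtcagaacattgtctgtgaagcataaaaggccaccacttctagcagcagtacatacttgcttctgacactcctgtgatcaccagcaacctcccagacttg
Hba-x: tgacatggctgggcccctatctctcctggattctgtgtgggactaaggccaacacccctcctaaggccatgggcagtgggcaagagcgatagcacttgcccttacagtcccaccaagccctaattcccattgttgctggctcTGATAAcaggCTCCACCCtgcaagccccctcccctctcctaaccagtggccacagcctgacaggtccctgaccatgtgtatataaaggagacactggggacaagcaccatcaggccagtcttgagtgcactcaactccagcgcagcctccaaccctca
GATA1, a factor of red cell genes, binds GATA motifs, and KLF1 binds CACCC motifs. In Hbb-y the GATA motif begins 162 bases and the CACCC motif 114 bases before the start, and in Hba-x they begin 108 and 98 bases before it. Searched on both strands of 32851 promoter windows, TGATAA was found in 9.05%, CTCCACCC in 4.85% and CCAAT in 37.4%. These are matches of letters and no binding was measured.

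Other globin genes rose to lower levels. Hbb-bh1, an embryonic beta-like globin, was at 139, 138 and 165 CPM at day 10 (log2FC 11.23 ± 0.23, adjusted p = 1.84e-13), and its fold moved to a log2FC of 12.20, without day 3 replicate 1, since the day 3 libraries held 12 counts in all. Hba-a1, an adult alpha globin, had 3 counts at day 3 and 51.9, 48.4 and 64.9 CPM at day 10, a ratio of 3694 with a 95% counting interval of 1264 to 17917. Its fitted log2FC of 11.68 became 14.88 without day 3 replicate 2, which lies outside that interval, so the size of its rise rests on that library. Hbb-bs, an adult beta globin, had none at day 3 and was at 15.4, 17.6 and 31.9 CPM at day 10, at least 1451-fold higher. The adult genes share 72.3% and 53.2% of their sequence windows with other genes, so their counts are uncertain. Such intervals and floors cover counting error only, since reads counted without molecular identifiers may be copies of 1 molecule.

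Erythroid regulators were low throughout. Gata1, the zinc finger factor that drives red cell genes, rose from 0.279, 0.262 and 0.25 CPM to 3.45, 3.38 and 4.76 CPM (log2FC 3.86 ± 0.22, adjusted p = 2.75e-09). Klf1, the erythroid factor that activates globin genes, rose 2.98-fold to 1.02, 0.868 and 1.2 CPM. Tal1 and Runx1, factors of the first blood progenitors, were higher by a log2FC of 3.79 and 2.59. Alas2, the first enzyme of haem synthesis in red cells, rose from 0.031, 0.0292 and 0.0294 CPM to 16.4, 13.8 and 16.8 CPM. The 3 list members called lower at day 10, all used by other cells too, were Myb (log2FC -3.36), Car2 (log2FC -3.17), which encodes a carbonic anhydrase, and Tfrc, the transferrin receptor (log2FC -0.56).

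Macrophage and platelet genes had summed levels at day 10 far above those of day 3 in every library. All 24 macrophage genes were called higher, with a median log2FC of 7.71, and their summed level was 11.9 to 12.8 CPM at day 3 and 494 to 668 CPM at day 10. C1qb, a chain of complement C1q made by macrophages, had no count at day 3 and 30.5, 39.3 and 47.9 CPM at day 10, at least 2629-fold higher. Tyrobp, a signalling adaptor of myeloid cells, was at least 1782-fold higher. Adgre1, which encodes the macrophage antigen F4/80, had 1 count at day 3 and 33.7, 39.6 and 47 CPM at day 10, a ratio of 8078 with a counting interval of 1449 to 319083, and its fitted log2FC of 12.53 became 14.42 without day 3 replicate 3. Csf1r, the receptor that macrophages need for survival, rose from 0.124, 0.117 and 0.0883 CPM to 71.3, 72.6 and 92.4 CPM (log2FC 9.47 ± 0.21, adjusted p = 2.80e-13).

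All 12 megakaryocyte and platelet genes were also called higher, with a median log2FC of 8.80, or 8.07 with the 4 genes of no day 3 count held at their lower bound. Pf4, platelet factor 4, had no count at day 3 or day 0 and was at 35.2, 44.7 and 50 CPM at day 10, at least 2901-fold higher. Ppbp, another platelet chemokine, was at 7.89, 9.77 and 12.4 CPM and at least 672-fold higher. Itga2b, the integrin chain CD41 of platelets and early blood progenitors, rose from 0.666, 0.772 and 0.692 CPM to 50.9, 44 and 57.6 CPM (log2FC 6.16 ± 0.13, adjusted p = 1.91e-13). The pan-leukocyte gene Ptprc (CD45) rose to 10.3, 11.9 and 14 CPM and the myeloid factor Spi1 (PU.1) to 4.99, 6.18 and 7.02 CPM. Of 9 mast cell genes only 3 passed the filter on low counts, and the mast cell proteases Cpa3 and Mcpt4 were among those that did not.

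Endothelial genes rose with those of blood, with which vessels share a progenitor. Of 24 genes 22 were called higher, 1 lower and 1 did not pass, with a median log2FC of 3.36. Kdr, the main receptor for vascular endothelial growth factor, rose from 0.806, 1.21 and 1.07 CPM to 140, 134 and 137 CPM (log2FC 7.04 ± 0.11, adjusted p = 3.15e-14). Cdh5, the cadherin of endothelial junctions, rose from 0.62, 0.525 and 0.397 CPM to 55.4, 50.3 and 47.9 CPM, and Tek, the angiopoietin receptor, from 1.49, 1.2 and 1.72 CPM to 41.1, 47.1 and 49.7 CPM. Pecam1 (CD31), found on endothelium and on embryonic stem cells, was at 56.6 to 58.6 CPM at day 0, at 3.5 to 4.71 CPM at day 3 and at 40.8 to 44 CPM at day 10. Etv2, a short-lived factor of endothelial and blood progenitors, fell from 2.62, 2.87 and 3.02 CPM to 1.22, 1.55 and 1.3 CPM (log2FC -1.06 ± 0.15, adjusted p = 1.70e-05). Eng, a coreceptor of TGF-beta, did not pass (log2FC 0.27, adjusted p = 0.0854), though it was called with DESeq2 (adjusted p = 0.045), without day 10 replicate 2 (adjusted p = 0.0402) and without day 10 replicate 3 (adjusted p = 0.0185).

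Heart muscle genes rose as a group. Of 32 genes of the cardiac sarcomere, calcium cycle and conduction 29 were called higher (90.6%), each by at least 2-fold, and 3.1% were called lower. The median log2FC was 6.26, or 5.96 with the 2 genes without day 3 counts at their bound. Myh6, the myosin heavy chain of fast-contracting heart muscle, was at 1.98, 2 and 2 CPM at day 3 and at 371, 366 and 359 CPM at day 10, a 183-fold rise (log2FC 7.52 ± 0.08, adjusted p = 4.31e-15). Myh7, the slower myosin of the embryonic ventricle, was at 0.201, 0.146 and 0.25 CPM and then at 313, 253 and 278 CPM (log2FC 10.45 ± 0.14). The myosins share about 20% of their sequence windows with other genes. Tnnt2, cardiac troponin T, rose from 0.124, 0.189 and 0.0589 CPM to 63.8, 85.8 and 96.2 CPM.

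Other parts of the contractile and electrical system behaved alike, with exceptions. Ttn, the giant sarcomere spring titin, was at 74.2 to 95 CPM at day 0, at 2.12, 1.75 and 2 CPM at day 3 and at 434, 280 and 301 CPM at day 10. Ryr2, the calcium release channel, rose 54.4-fold and Hcn4, the pacemaker channel, 25.7-fold. Csrp3, a protein of the Z-disc, had no count at day 3 and was at 18.7, 30.1 and 26.7 CPM at day 10, at least 1687-fold higher. Nppa, the atrial natriuretic peptide, reached only 0.644, 0.907 and 0.793 CPM at day 10. Atp2a2, the calcium pump of the sarcoplasmic reticulum and of many other cells (289, 302 and 282 CPM, then 316, 296 and 285 CPM), and Casq2, the calcium store protein, did not pass.

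Transcription factors of the heart fields and epicardium were also higher, in 21 of 22 cases, with a median log2FC of 4.73. Nkx2-5, a homeodomain factor of cardiac progenitors, rose from 0.155, 0.189 and 0.206 CPM to 7.65, 7.72 and 7.51 CPM (log2FC 5.36 ± 0.16, adjusted p = 3.01e-12). Tbx5, a T-box factor of the first heart field, rose from 0.031, 0.0875 and 0.0883 CPM to 11.5, 14 and 13.4 CPM. Hand2, a factor of the second heart field, had 3 counts at day 3 and 52.2, 68.9 and 72.7 CPM at day 10, a ratio of 4337 with a counting interval of 1484 to 21033, and its fitted log2FC of 11.91 became 12.74 without day 3 replicate 2. Isl1, another factor of second heart field progenitors, was already at 5.98, 7.48 and 8.55 CPM at day 3 and rose 3.35-fold. Wt1 and Tcf21, which mark the epicardium among other mesoderm, rose by a log2FC of 3.47 and 8.07. The value of Tcf21, which had 6 counts at day 3, became 8.97 without day 3 replicate 2. Srf, which binds CArG motifs of muscle genes in most cell types, was the 1 member called lower (log2FC -0.47 ± 0.07, adjusted p = 5.39e-05).

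Smooth muscle genes divided. Of 14, 10 were called higher, 3 lower and 1 did not pass, with a median log2FC of 2.51. Acta2, smooth muscle alpha-actin, which early heart muscle also expresses, rose from 1.44, 2.2 and 2.16 CPM to 114, 167 and 168 CPM (log2FC 6.27 ± 0.19, adjusted p = 5.49e-12). Myocd, a coactivator of SRF, rose from 0.449, 0.423 and 0.442 CPM to 15.5, 14.5 and 14.8 CPM. Cnn1, calponin, a protein bound to actin filaments, fell from 20.1, 22.6 and 25.3 CPM to 5.07, 6.6 and 7.44 CPM (log2FC -1.83 ± 0.13, adjusted p = 1.80e-08). Tagln (SM22), another actin-binding protein, fell from 37.3, 52.9 and 49.2 CPM to 19.6, 30 and 30.3 CPM (log2FC -0.80 ± 0.16), with 58.3% of its windows shared, so that its count is uncertain. Myh11, the myosin of differentiated smooth muscle, stayed under 1 CPM in every library. The transcript of Acta2 and that of Cnn1 thus went opposite ways, with no overlap between days in either.

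The actin genes Acta2 and Actc1 are both known to be activated through CArG motifs, which SRF binds, and their promoter windows are shown because both rose while Srf fell. Actc1, cardiac alpha-actin, rose from 1.83, 2.93 and 2.41 CPM to 266, 311 and 332 CPM (log2FC 6.98 ± 0.15, adjusted p = 2.05e-13). The windows (RefSeq, GRCm38.p6) are chr19:34255324-34255623 for Acta2 and chr2:114052826-114053125 for Actc1, both on the minus strand, and capitals mark a CArG-like run of identical letters in both, in which 1 inner letter is neither A nor T.
Acta2: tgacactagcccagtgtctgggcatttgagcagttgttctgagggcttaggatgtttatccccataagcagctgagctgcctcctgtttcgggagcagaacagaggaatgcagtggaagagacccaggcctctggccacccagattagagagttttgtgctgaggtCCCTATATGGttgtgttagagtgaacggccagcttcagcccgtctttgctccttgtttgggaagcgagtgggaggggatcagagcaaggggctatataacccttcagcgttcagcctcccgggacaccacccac
Actc1: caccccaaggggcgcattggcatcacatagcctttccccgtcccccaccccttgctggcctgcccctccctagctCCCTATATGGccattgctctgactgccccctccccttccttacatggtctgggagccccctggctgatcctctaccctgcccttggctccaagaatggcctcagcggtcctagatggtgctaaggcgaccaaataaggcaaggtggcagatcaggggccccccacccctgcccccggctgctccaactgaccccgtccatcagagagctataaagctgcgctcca
This run begins 84 bases before the start in Acta2 and 175 bases before it in Actc1. Its 10 letters were read from the Acta2 window and then searched for, so their presence in that window was fixed beforehand. They were found on either strand in 9 of the 32851 windows (0.0274%). That is the share of these exact letters, and the share of CArG-like runs with other letters was not counted. Such runs were not marked either, among them ccttgtttgg in the Acta2 window. A CArG box with A or T at every inner place was found in 535 windows (1.63%), among them that of Actc1, where it begins 47 bases before the start. The window of Cnn1 held neither, which says nothing about its regulation from elsewhere.

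Skeletal muscle genes were low at both days. Only 7 of 13 passed the filter on low counts. Of these 7, 57.1% were called higher and 28.6% lower (39.6% and 36.5% of all genes), with a median log2FC of 0.80. Myod1 and Myog, the factors that commit cells to skeletal muscle, were among those that did not pass the filter. Myf5, an early factor of the same family, fell from 0.325, 0.423 and 0.397 CPM to 0.0268, 0.0526 and 0 CPM (log2FC -3.77 ± 0.48, adjusted p = 7.83e-06), and its log2FC became -4.67 without day 10 replicate 2. Of the 13 tested genes of paraxial mesoderm and somites, 9 were higher and 3 lower. Meox1, a homeodomain factor of somites, rose from 0.0775, 0.117 and 0.0883 CPM to 2.94, 3.77 and 3.76 CPM, whereas Tcf15 (paraxis), which is also present in stem cells, fell from 4.46, 4.42 and 4.02 CPM to 0.657, 0.631 and 0.976 CPM.

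Connective tissue genes were called higher almost as a whole and reached high levels at day 10. Of 31 fibroblast and interstitial matrix genes 29 were called higher, with a median log2FC of 4.76, and their summed level went from 386 to 436 CPM at day 3 to between 11138 and 13222 CPM at day 10. Col3a1, a chain of the fibril-forming collagen III (chr1:45311538-45349706), rose from 0.589, 0.743 and 0.971 CPM to 3242, 3977 and 4762 CPM (log2FC 12.34 ± 0.21, adjusted p = 5.14e-14). Postn, periostin, a matrix protein of fibroblasts and heart valves, rose from 0.062, 0.102 and 0.103 CPM to 710, 833 and 1048 CPM (log2FC 13.21 ± 0.22, adjusted p = 4.18e-14). Lum, the collagen-binding proteoglycan lumican, rose from 0.0155, 0.0292 and 0.0589 CPM to 184, 244 and 295 CPM. Each of these 3 was lowest in day 10 replicate 1, and that library too lay far above every day 3 library.

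Collagen genes as a family moved the same way. Of 41 tested chains 36 were called higher, 3 lower and 2 did not pass, with a median log2FC of 3.31. Col1a1 and Col1a2, the chains of collagen I, rose 606-fold and 511-fold to means of 875 and 1180 CPM. Pdgfra, the growth factor receptor of mesenchymal cells, was already at 11.1, 16.2 and 11.9 CPM at day 3 and rose to 321, 329 and 321 CPM. The chains called lower were Col6a5, Col5a3 and Col7a1, the last of which forms the anchoring fibrils of skin, and all 3 were under 7 CPM at day 3. Thy1, a surface marker of some fibroblasts and of T cells and neurons, fell from 5.14, 3.77 and 4.67 CPM to 1.02, 0.631 and 1.31 CPM.

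Cartilage genes were mixed, with 11 of 16 tested higher, 4 lower and a median log2FC of 1.88. Sox9, the factor that drives chondrocyte genes, rose from 0.356, 0.248 and 0.28 CPM to 13.2, 9.25 and 9.25 CPM (log2FC 5.16 ± 0.20, adjusted p = 3.99e-11). Col2a1, cartilage collagen, rose from 20.9, 18.4 and 19.2 CPM to 89.7, 81.5 and 80.1 CPM. Acan, aggrecan, the main proteoglycan of mature cartilage, fell from 2.28, 2.39 and 2.3 CPM to 0.255, 0.197 and 0.221 CPM. Alpl, the alkaline phosphatase of bone and of pluripotent cells, fell from 77.5, 78.3 and 71.3 CPM to 14.3, 16.9 and 17 CPM. Genes of mature bone such as Bglap and Ibsp did not pass the filter on low counts.

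Epithelial and mesenchymal genes moved in opposite directions, but keratins rose. In the list of simple epithelium 13 of 21 were lower and 6 higher, and in the list of genes of the mesenchymal state 14 of 15 were higher and none lower (median log2FC 2.64). Cdh1 (E-cadherin), the adhesion protein of epithelia and stem cells, fell from 425, 418 and 416 CPM to 138, 86.3 and 88.5 CPM (log2FC -2.01 ± 0.14, adjusted p = 1.95e-08). Vim (vimentin), an intermediate filament of mesenchymal cells, rose from 63.9, 84.2 and 79.8 CPM to 720, 852 and 917 CPM (log2FC 3.45 ± 0.12, adjusted p = 1.18e-11). Krt8 and Krt18, the paired keratins of simple epithelia, rose 4.4-fold and 6.41-fold, and Krt7, another simple keratin, 11.6-fold. Among the repressors of E-cadherin, Zeb1 rose from 2.8, 3.1 and 2.72 CPM to 64.1, 74 and 73.2 CPM and Snai2 (Slug) from 0.155, 0.146 and 0.0442 CPM to 14.2, 9.16 and 8.86 CPM. Snai1 did not pass (4.23, 7.7 and 6.3 CPM, then 7.54, 8.12 and 7.66 CPM, adjusted p = 0.0638), but was called higher without day 3 replicate 2 (adjusted p = 0.00648) and without day 10 replicate 1 (adjusted p = 0.0422).

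Neuronal genes were mostly lower at day 10. Of 19 neuronal genes 12 were lower and 4 higher, with a median log2FC of -1.16 and a summed level of 371 to 422 CPM at day 3 and 88.2 to 97.2 CPM at day 10. Ina, a neuronal intermediate filament also present in stem cells, fell from 36.9, 41.9 and 39.4 CPM to 1.93, 1.68 and 1.96 CPM (log2FC -4.40 ± 0.08, adjusted p = 1.22e-13), and Tubb3, neuronal beta-tubulin, fell 1.85-fold. Of 17 neural progenitor genes 12 were higher, though their summed level was lower, 181 to 194 CPM at day 3 and 122 to 128 CPM at day 10. Sox1 and Pax6, factors of neural plate and neural tube, rose to 2.54 to 2.78 CPM and 2.64 to 3.88 CPM, below their day 0 levels of 17.2 to 18.4 and 11.7 to 12.7 CPM. Sox10, a factor of neural crest, stayed under 1 CPM in all 9 wild-type libraries.

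**Figure D3:**
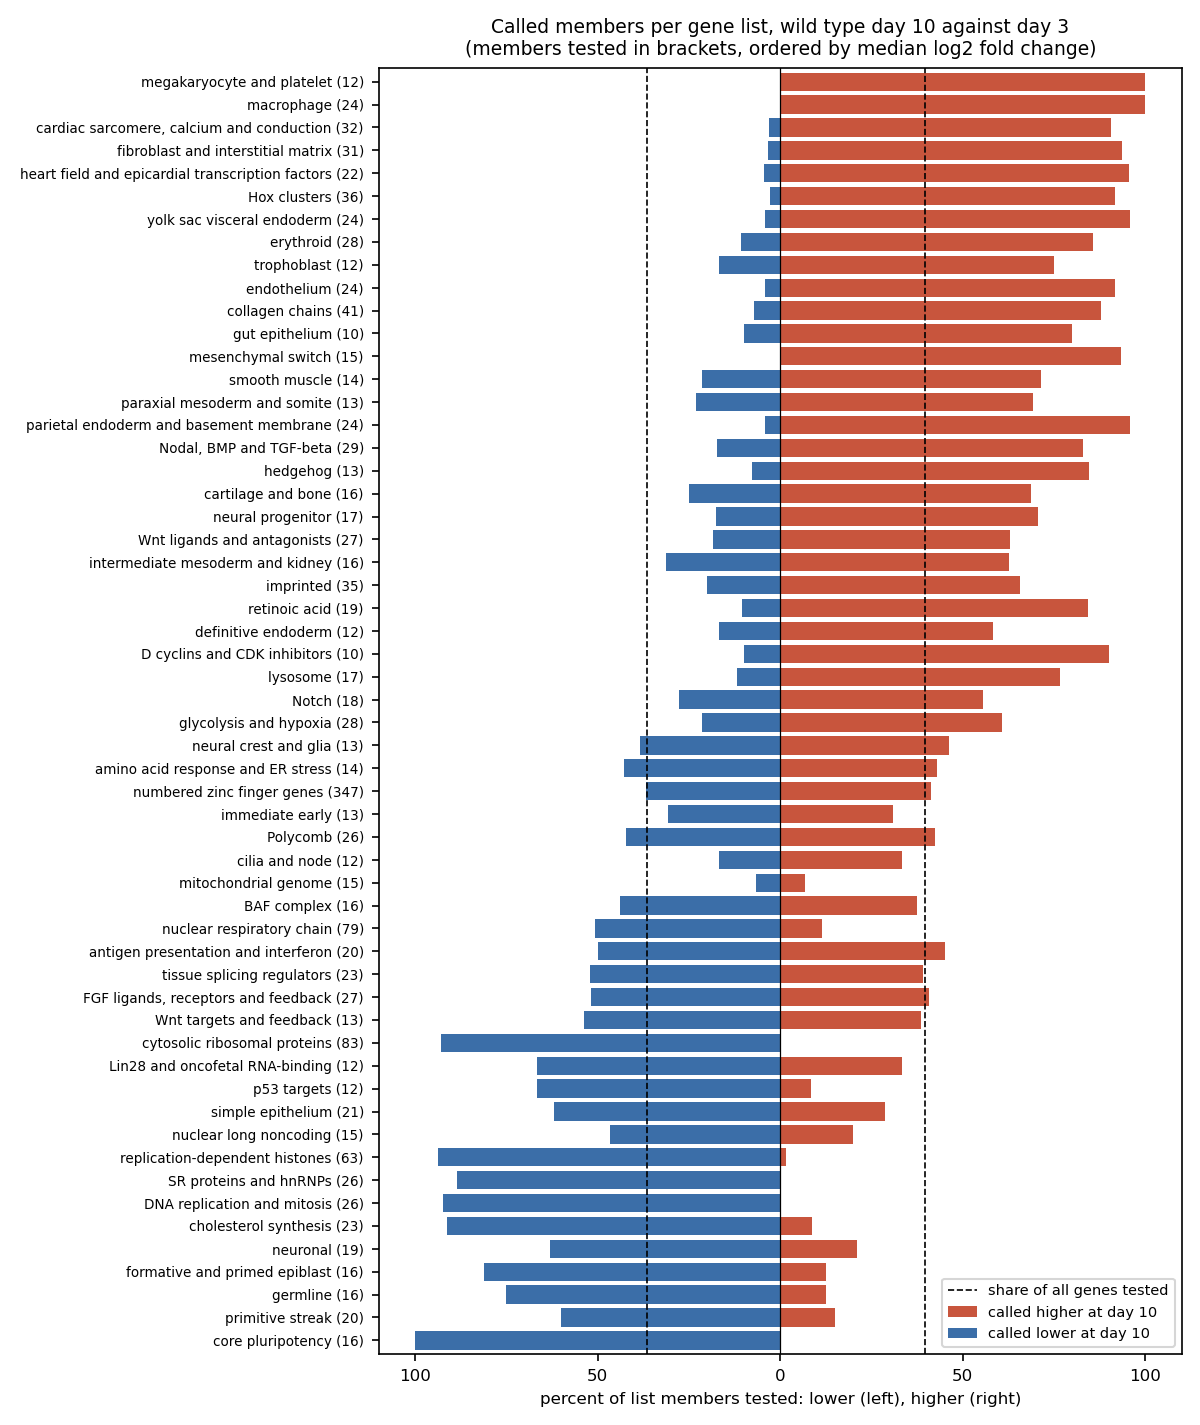
Percent of the tested members of each gene list called higher or lower at day 10, for lists with at least 10 tested members ordered by their median log2FC. Dashed lines show the shares among all 21060 genes tested (39.6% higher and 36.5% lower). The macrophage, platelet, heart, Hox and matrix lists lie at one end and the pluripotency, primitive streak and germline lists at the other.

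Hox genes, which set position along the body axis, were almost all higher at day 10. Of 36 tested genes 33 were called higher (91.7%), all by at least 2-fold, with a median log2FC of 4.53, or 4.37 with the 2 genes of no day 3 count at their bound. Their levels stayed low, since the sum over the list was 7.87 to 9.71 CPM at day 3 and 76.4 to 99.1 CPM at day 10. Hoxd8, a gene of the middle of its cluster, rose from 0.062, 0.0437 and 0.0589 CPM to 5.92, 7.68 and 7.77 CPM (log2FC 6.98 ± 0.22, adjusted p = 7.57e-12). Hoxb1, the earliest of its cluster in the embryo, did not pass (0.697, 0.933 and 0.721 CPM, then 0.711, 0.749 and 0.767 CPM), nor did Hoxb9. Hoxc13 was called lower, from 0.697, 1.08 and 1.03 CPM to 0.389, 0.684 and 0.312 CPM (log2FC -1.02 ± 0.28, adjusted p = 4.93e-03).

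The Cdx genes, which act upstream of Hox genes in the posterior embryo, diverged. Cdx2, which also specifies trophoblast and gut, rose from 4.59, 7.51 and 6.08 CPM to 9.87, 10.7 and 12.2 CPM (log2FC 0.85 ± 0.15, adjusted p = 1.49e-04). Cdx1 fell from 0.682, 1.62 and 1.21 CPM to 0.121, 0.21 and 0.234 CPM. Cdx4 was at or under 0.16 CPM in the 6 libraries, and its fall (adjusted p = 0.0183) lost its call without day 3 replicate 2 (adjusted p = 0.124) and without day 10 replicate 1 (adjusted p = 0.0621).

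Germline genes were lower, with 12 of 16 called lower, 2 higher and a median log2FC of -2.58. Ddx4 (Vasa), an RNA helicase of germ cells, fell from 11.7, 12.3 and 11.6 CPM to 0.268, 0.486 and 0.416 CPM (log2FC -4.92 ± 0.14, adjusted p = 2.08e-12). It was also among the 25 largest falls of genes whose mean reached 5 CPM at day 3 or day 10. The list of those falls held Btla, an inhibitory receptor of lymphocytes (7.63 ± 0.831 CPM at day 3 and 0.0884 ± 0.0516 CPM at day 10, mean ± SD, n = 3), Cbr3, a carbonyl reductase (40.3-fold), Trpa1, an ion channel (37.6-fold), and Platr10, a long noncoding RNA of pluripotent cells (37.6-fold).

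Ligand genes of several signalling pathways moved in both directions. Among Wnt ligands and secreted antagonists 17 of 27 were higher and 5 lower, with a median log2FC of 1.71. Wnt3, the ligand needed to form the primitive streak, fell from 37.7, 45.5 and 44.3 CPM to 4.74, 4.21 and 4.27 CPM, and Wnt8a from 74.1, 75.6 and 75.7 CPM to 2.88, 1.58 and 2.98 CPM. Wnt5a, a ligand that acts mostly without beta-catenin, rose from 0.511, 1.06 and 0.5 CPM to 33.5, 29.3 and 28.5 CPM, and Wnt2, a ligand of lung and heart mesoderm, from 0.217, 0.277 and 0.309 CPM to 11.8, 17.6 and 16.6 CPM. Of 13 targets and feedback genes of the pathway 5 were higher and 7 lower. Axin2, a direct target and inhibitor, fell from 117, 136 and 123 CPM to 30.7, 27.6 and 26.7 CPM (log2FC -2.15 ± 0.08, adjusted p = 1.84e-11), and the target Sp5 fell 11.4-fold, while Dkk1, a secreted inhibitor, rose 2.17-fold.

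Of 29 genes of the Nodal, BMP and TGF-beta pathways 24 were higher and 5 lower, with a median log2FC of 2.17. Nodal, the ligand that patterns the epiblast, fell from 148, 154 and 156 CPM to 7.11, 7.66 and 7.7 CPM (log2FC -4.35 ± 0.07, adjusted p = 3.27e-14), together with its antagonists Lefty1 (log2FC -4.51) and Lefty2 (log2FC -3.86). The other 2 called lower, named because the count was small, were Smad7, an inhibitory SMAD, and Chrd, a BMP antagonist. Bmp4, a ligand of mesoderm and blood induction, was at 67.8 to 71.4 CPM at day 0, at 4.04, 4.68 and 4.03 CPM at day 3 and at 45.8, 51.1 and 48.1 CPM at day 10. Tgfb2, a ligand of heart valve formation, rose from 0.945, 1.14 and 1.25 CPM to 63, 64.3 and 69.8 CPM (log2FC 5.88 ± 0.10, adjusted p = 5.08e-14).

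Of 27 genes of the FGF pathway 11 were higher and 14 lower. Fgf8, a ligand of the streak, fell 11.6-fold and Fgf4, a ligand of stem cells, 7.33-fold, whereas Fgf10, a ligand of limb, lung and heart field mesoderm, rose 5-fold to 23.5, 14.1 and 15.5 CPM. Fgfr2 rose from 8.94, 9.42 and 9.18 CPM to 74.7, 69.9 and 72.9 CPM and Fgfr3 from 1.32, 1.56 and 1.55 CPM to 39.6, 37.3 and 37.9 CPM. Notch genes were mostly higher (10 of 18), among them the arterial ligand Dll4 (log2FC 5.09 ± 0.30) and the target Heyl. Dll3 fell from 9.84, 10.35 and 9.02 CPM to 2.67, 1.68 and 2.91 CPM (log2FC -2.01 ± 0.17, adjusted p = 1.16e-07). Notch3 (log2FC -0.32) and Hes1 (log2FC -0.40) were lower by less, and the call of Notch3 was lost with the total count only (adjusted p = 0.117, edgeR).

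Retinoic acid and hedgehog genes were mostly higher, 16 of 19 and 11 of 13. Rarb, a receptor gene that retinoic acid itself induces, rose from 0.232, 0.146 and 0.294 CPM to 36.8, 45.8 and 42.7 CPM (log2FC 7.53 ± 0.18, adjusted p = 5.39e-13), with 34.1% of its windows shared with other genes. Aldh1a2, the main enzyme that makes retinoic acid in mesoderm, rose 18.4-fold to 11.6, 16.5 and 15.9 CPM. Rarg, the receptor most abundant in stem cells, fell from 60.9, 57.9 and 62.3 CPM to 22.5, 23.8 and 24.5 CPM. Ptch1 and Gli1, direct targets of hedgehog signalling, rose from 34.4, 33 and 28.8 CPM to 229, 161 and 168 CPM and from 4.31, 3.8 and 4.08 CPM to 26.8, 19.8 and 19.8 CPM. Ihh, the ligand made by visceral endoderm, rose 7.53-fold to 12.2, 12.9 and 12.9 CPM.

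Cell cycle genes were lower by small factors. Of 26 genes of DNA replication and mitosis 24 were lower and none higher, with a median log2FC of -0.83. Ccne1, the cyclin that starts S phase and is high in stem cells, fell from 142, 145 and 152 CPM to 24.4, 27.9 and 30.2 CPM (log2FC -2.41 ± 0.08, adjusted p = 9.61e-12). Mcm2, a subunit of the replicative helicase, fell 2.93-fold and Cdk1, the mitotic kinase, 1.41-fold. Mki67, the Ki-67 proliferation antigen, did not pass (529, 472 and 422 CPM, then 534, 406 and 430 CPM, adjusted p = 0.636), and was called lower without day 10 replicate 1 (log2FC -0.18, adjusted p = 0.0302). Of 63 tested replication-dependent histone genes 59 were lower, with a median log2FC of -0.70, in total RNA that keeps transcripts without a poly(A) tail. The inhibitor Cdkn1c (p57) rose from 18.9, 19.9 and 21.8 CPM to 116, 166 and 163 CPM.

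Within several families 1 member fell while its relatives rose. Ccnd1 (cyclin D1) fell from 187, 179 and 184 CPM to 76.1, 82.9 and 74.7 CPM, Ccnd2 rose from 14.9, 18.8 and 17.6 CPM to 224, 119 and 115 CPM, and Ccnd3, named after its values were seen to complete the family, rose 3.26-fold. Among the enzymes that oxidise 5-methylcytosine, Tet1 fell from 189, 169 and 153 CPM to 109, 61.4 and 62.5 CPM (log2FC -1.13 ± 0.17, adjusted p = 4.75e-05), Tet2 rose from 17.7, 15.7 and 14.1 CPM to 104, 85.7 and 79.5 CPM, and Tet3 rose from 14.5, 12.3 and 12.6 CPM to 124, 67.6 and 67.1 CPM. Tet2 had been at 347 to 355 CPM at day 0. Day 10 replicate 1 was the highest day 10 library for Ccnd2, Tet1 and Tet3, and the days did not overlap for any of these genes.

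Transcripts of some related chromatin subunits also moved in opposite directions. In Polycomb repressive complex 1, Cbx7, the chromodomain subunit of stem cells, fell from 133, 102 and 108 CPM to 29.7, 27.1 and 28.9 CPM (log2FC -2.00 ± 0.10, adjusted p = 3.83e-10), Cbx8 rose 14.3-fold and Cbx2, likewise named afterwards, 1.56-fold. In the BAF remodelling complex the ATPase gene Smarca4 (Brg1) fell slightly (log2FC -0.32), from 413, 403 and 404 CPM to 334, 307 and 337 CPM, and its alternative Smarca2 (Brm) rose from 6.48, 7.54 and 7.58 CPM to 52.4, 52.5 and 57.4 CPM. Smarcd3, the subunit of heart and muscle BAF, rose 17-fold, though 44% of its windows are shared, and Smarcd1 fell 1.92-fold. Over the whole lists no direction prevailed, with 11 of 26 Polycomb genes higher and 11 lower, and 6 of 16 BAF genes higher and 7 lower. Ezh2, the methyltransferase of Polycomb repressive complex 2, did not pass (adjusted p = 0.454), and Ezh1 rose 1.53-fold.

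**Figure D4:**
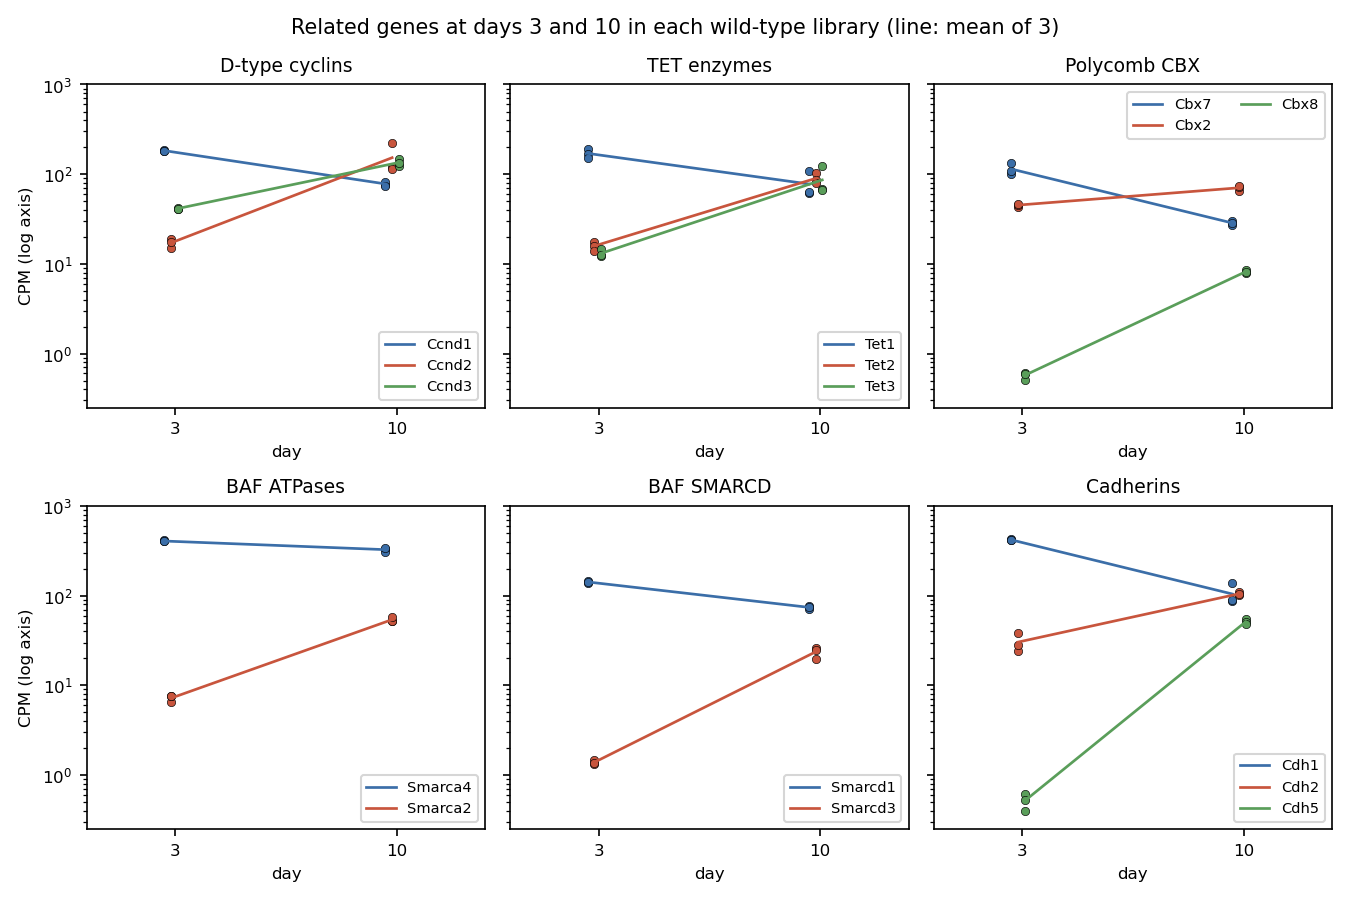
CPM at day 3 and day 10 of related genes in 6 families, on a log axis. Points are single libraries and lines join the means of the 2 days. In each family the lines of at least 1 member fall while those of others rise, as for Ccnd1 against Ccnd2 and Smarca4 against Smarca2.

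Imprinted genes, of which many promote growth of the fetus and placenta, were higher in 23 of 35 cases and lower in 7, with a median log2FC of 1.40 and a summed level of 3551 to 3677 CPM at day 3 and 14259 to 15208 CPM at day 10. Igf2, insulin-like growth factor 2, rose from 7.1, 8.06 and 7.71 CPM to 3680, 3837 and 4270 CPM (log2FC 9.01 ± 0.11, adjusted p = 6.08e-15), with 62.1% of its windows shared with other annotated genes. Its neighbour H19, a noncoding RNA expressed from the other parental copy, rose from 1.1, 0.714 and 1.27 CPM to 184, 223 and 337 CPM. Dlk1, a membrane protein related to Notch ligands, rose from 1.41, 1.62 and 1.71 CPM to 301, 287 and 321 CPM, while Meg3, the noncoding RNA of the same locus, did not pass (177, 105 and 124 CPM, then 220, 152 and 179 CPM, adjusted p = 0.0592), but was called higher without day 3 replicate 1 (adjusted p = 0.00714) and without day 10 replicate 2 (adjusted p = 0.0279). Peg3, a zinc finger protein, rose 6.59-fold to 2289, 2125 and 2247 CPM. Hmga2, a chromatin protein repressed by let-7, rose 8.27-fold, and Lin28b, which blocks let-7, fell 3.15-fold.

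RNA-binding proteins are the subject of the series, and the STAR family was measured in full. Qk (Quaking) rose slightly, from 232, 229 and 216 CPM to 278, 254 and 273 CPM (log2FC 0.25 ± 0.06, adjusted p = 2.06e-03). Khdrbs1 (Sam68) was at 153, 165 and 161 CPM and then at 144, 98.9 and 102 CPM (log2FC -0.47 ± 0.11, adjusted p = 1.89e-03), with day 10 replicate 1 close to the day 3 libraries. Khdrbs3 (SLM2) fell 2.04-fold and Sf1, the branch point binding protein, 1.62-fold, while Khdrbs2 (SLM1) rose 3.3-fold but stayed at or under 1.11 CPM. Of 26 SR protein and hnRNP genes, the general splicing factors, 23 were lower and none higher (median log2FC -0.71).

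Tissue splicing regulators divided, with 9 of 23 higher and 12 lower. Mbnl1 (muscleblind), which controls splicing changes of muscle maturation, rose from 15.6, 14.7 and 14.3 CPM to 69.3, 67.9 and 78.2 CPM (log2FC 2.27 ± 0.07, adjusted p = 9.61e-12). Rbfox2, a regulator of heart and epiblast splicing, rose 1.88-fold and Celf2 2.2-fold. Esrp1, the epithelial splicing regulator, fell from 84, 86.1 and 82.9 CPM to 33.1, 26.8 and 26.6 CPM. It had been at 8.95 to 9.77 CPM at day 0.

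Genes of protein synthesis and sterol synthesis were lower. Of 83 cytosolic ribosomal protein genes 77 were lower and none higher (92.8% lower against 36.5% of all genes), with a median log2FC of -0.52. Per kilobase of exon, Eef1a1, the elongation factor that brings aminoacyl-tRNA to the ribosome, was the most abundant nuclear protein-coding gene at both days, at 5788 and then 4704 CPM per kb, and Npm1 (nucleophosmin) ranked among the 10 highest at day 3 only. Npm1 fell from 4092, 4396 and 4272 CPM to 1541, 1956 and 2003 CPM. Of 23 cholesterol synthesis genes 21 were lower, with a median log2FC of -1.05, among them Sqle, squalene epoxidase (213, 204 and 209 CPM, then 74.1, 81.2 and 83.4 CPM). Sqle had been lower still at day 0, at 55.7 to 58 CPM.

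Genes of glycolysis and the response to low oxygen were higher in 17 of 28 cases and lower in 6. Vegfa, the growth factor of vessels, rose from 9.16, 7.11 and 7.62 CPM to 133, 120 and 96.6 CPM (log2FC 3.87 ± 0.13, adjusted p = 1.01e-11), and Slc2a1, a glucose transporter, 1.2-fold. Of 17 lysosome genes 13 were higher. Of 79 nuclear genes of the respiratory chain 40 were lower, 9 higher and 30 did not pass (median log2FC -0.23). Of 15 transcripts of the mitochondrial genome 13 did not pass, a count that depended on single libraries, since 5 were higher and 1 lower without day 3 replicate 1, and none higher and 5 lower without day 10 replicate 1.

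Classes of RNA differed from protein-coding genes, of which 44.1% were higher and 37.7% lower. Of 162 small nucleolar RNAs 109 were lower and 6 higher (median log2FC -1.11), and of 1744 processed pseudogenes, whose reads cannot be told from those of their parent genes, 903 were lower and 80 higher (median log2FC -0.57). Of 535 antisense transcripts 253 were higher and 99 lower. The strand setting of the counting is not given in the sources used here, so reads of an antisense gene and its partner cannot be told apart.

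The same contrast was available in the KO lines, whose libraries the wild-type contrast does not use. The target genes were still counted there: at day 3 Khdrbs1 was at 97.3, 101 and 111 CPM of the total count in the Sam68 KO line and at 148, 164 and 162 in wild type, and Qk at 117, 113 and 110 in the Quaking KO line and at 225, 227 and 217 in wild type. At day 10 Khdrbs1 was at 98.9, 101 and 103 CPM in the Sam68 KO line and at 162, 106 and 110 CPM in wild type, so that 2 of the wild-type libraries lay close to the KO libraries. At day 0 it was higher in the Sam68 KO line (99.9, 95.2 and 92.9 CPM) than in wild type (88.7, 92.3 and 88.1 CPM). Qk at day 10 was at 214, 211 and 230 CPM in the Quaking KO line and at 312, 272 and 294 CPM in wild type, and at day 0 at 145, 134 and 142 CPM against 215, 216 and 208 CPM. Which part of either gene was deleted is not given in the labels, and a count over the whole gene did not separate the Sam68 KO line from wild type in the same direction at every day, so these counts do not check the label of that line. Of genes changed at least 2-fold and tested in both lines, 4379 rose in wild type and in the Quaking KO line (89.6% of the wild-type list and 89.7% of the other), and 2387 fell in both (75.6% and 84.1%). With the Sam68 KO line 3594 rose in both (76.4% and 74.1%) and 2194 fell in both (74.3% and 53.5%). In the Quaking KO line 78.1% of 20855 tested genes were called, 41.1% higher and 37.0% lower, and in the Sam68 KO line 86.0% of 20646, 43.5% higher and 42.5% lower. The lines differ in clone as well as in genotype, and the differences between their fold changes were not tested.

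The medians of several lists are given for the 3 lines side by side. The median of the cardiac list was 6.26 in wild type, 5.22 in the Quaking KO line and 7.50 in the Sam68 KO line, and that of the macrophage list was 7.71, 8.31 and 6.65. The median of the primitive streak list was -3.35, -2.34 and -0.98, and T, with a log2FC of -4.66 in wild type, had one of -3.55 and -1.27. Nuclear respiratory chain genes had medians of -0.23, -0.26 and 0.36. Cnn1 and Tagln, lower at day 10 in wild type, had a log2FC of -1.60 and -1.13 in the Quaking KO line and of 0.50 and 2.24 in the Sam68 KO line. Which of these contrasts reflect the knockout cannot be told apart from the clone.

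**Figure D5:**
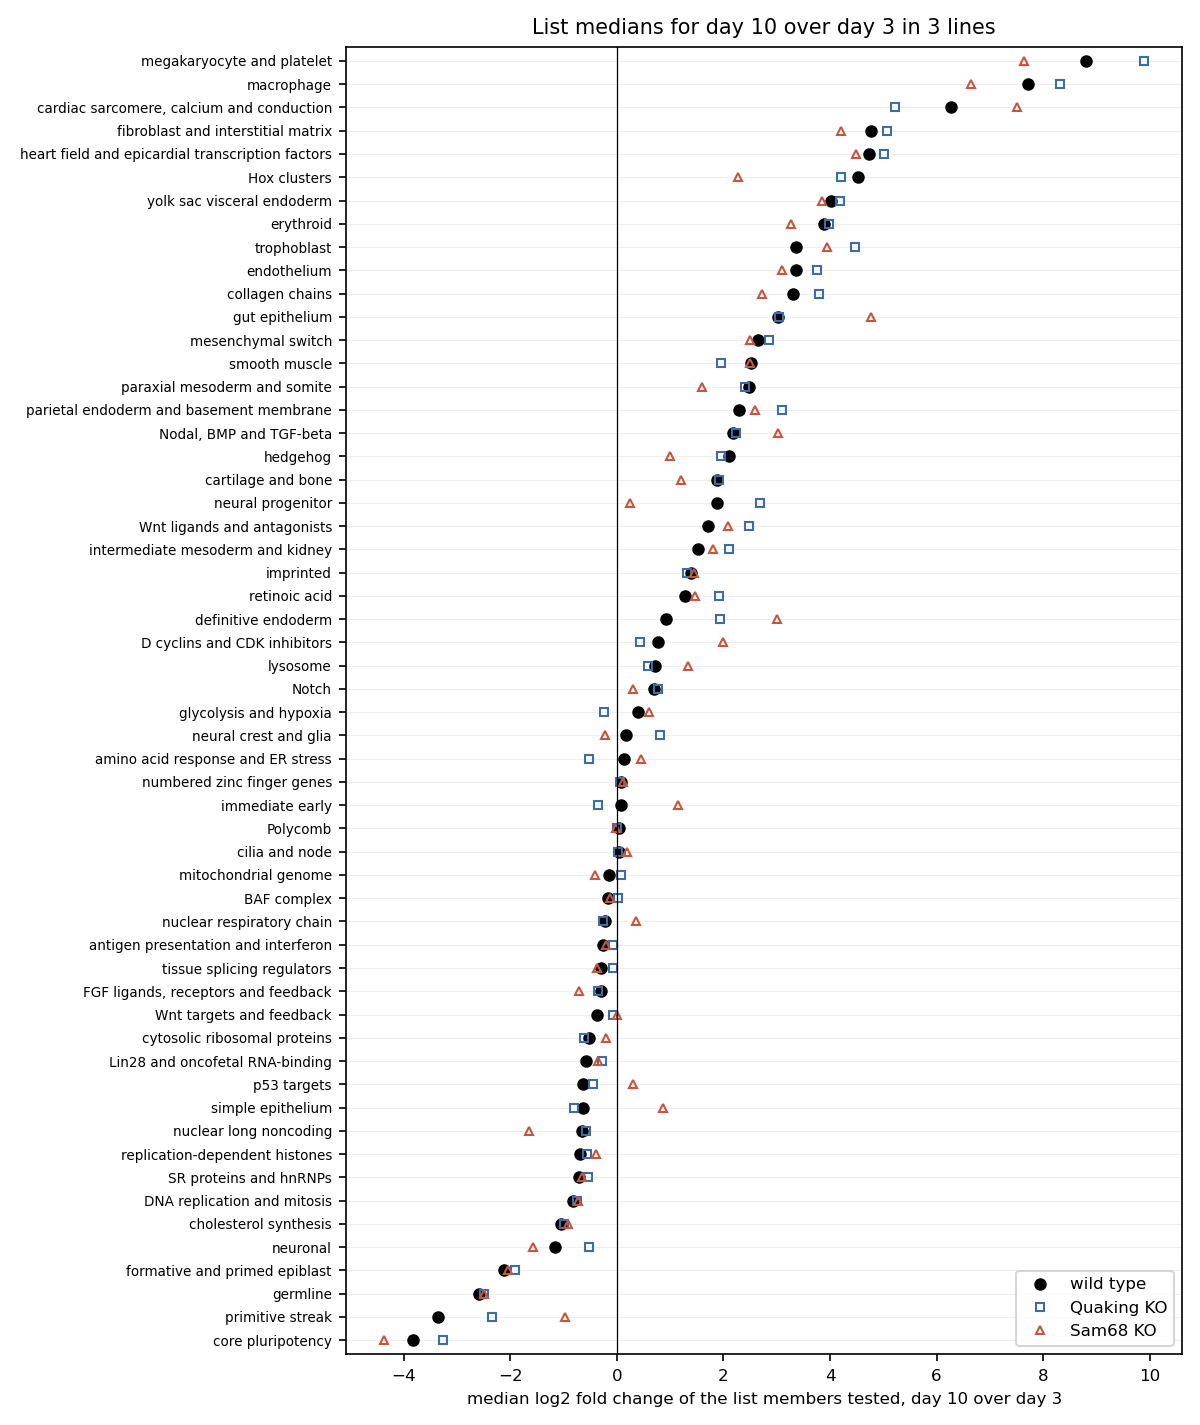
Median log2FC of day 10 over day 3 for each gene list with at least 10 tested members in wild type, the Quaking KO line and the Sam68 KO line, each fitted on its own libraries. Points of 1 row belong to 1 list. Over all 63 lists, shorter ones included, 49 medians keep their side of zero in the 3 lines, and the primitive streak median is -3.35, -2.34 and -0.98.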

How the data were processed

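RNA was extracted from embryoid bodies with a Maxwell simplyRNA kit, depleted of ribosomal RNA and made into stranded TruSeq total RNA libraries, read as pairs of 125 bases, per the labels' protocols. The authors deposited 1 table of raw read counts per gene for each library. Per the submitters' processing notes, bcl2fastq 2.17.1.14 and STAR 2.5.3a were used with GRCm38 (mm10). No source used here names the counting tool, whether it used strand, or the release of the annotation. Of 51826 gene identifiers 51633 were matched, without version, to a GENCODE annotation for symbols and classes.

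Low genes were removed with filterByExpr at a minimum count of 10 and a minimum total of 15, and the rest were scaled by TMM and tested with edgeR 4.0.16 (quasi-likelihood, R 4.3.3) on the 9 wild-type libraries, with day 10 minus day 3 as the contrast and Benjamini-Hochberg adjustment over all genes. All adjusted p-values come from this model unless another is named. The standard error is the log2 fold change divided by the square root of F. The labels call the replicates biological triplicates and do not say whether they came from separate cultures, so whether the p-values extend to other cultures is not known. The spread behind them was pooled over days 0, 3 and 10, with a common coefficient of variation of 8.59%. By day it was 4.13%, 5.63% and 12.9%. Standard errors and p-values thus rest partly on day 0, which is not compared, and the pooled spread lies below that of day 10. A fit of days 3 and 10 only called 15245 of 20121 genes. The KO lines were fitted alike, each on its own libraries. The fit was also run on simulated data with few changed genes. That share was far below the 76.1% called here, so the run could not check the scaling. Alternatives used DESeq2 1.42.0, other scalings and filters, and each library left out.

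The members and gene lists were chosen with earlier results of these data known. The text names list members marked as defining, up to 3 called members of a list with the largest rise and 3 with the largest fall at a group mean of at least 1 CPM, the 25 largest rises and falls at a mean of 5 CPM or more at either day without overlap (predicted genes, pseudogenes and genes without a symbol left out), members that did not pass where a list had at most 5, and the 10 genes highest per kilobase at each day. Some of these are left out, and a few results are not reported here. The shared percentage of a gene is the share of 50-base windows of its exons found in other genes. Counting intervals are 95%, and they and the floor of 3 counts over a group cover counting error only.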

Additional observations from a re-analysis of the deposited data

Results flagged for a closer look

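Between wild type and a KO line, 16 of 534 named genes had opposite signs of log2FC, day 10 over day 3. In these every day 10 library lay above every day 3 library in one line and below in the other, and the gene was called in both. Libraries were compared in TMM-scaled CPM in wild type and as shares of the total count in the KO lines. A wider count took all genes changed at least 2-fold in wild type and tested in both lines. In the Sam68 KO line 219 of 4703 higher genes and 43 of 2953 lower genes were called the opposite way. In the Quaking KO line 2 of 4890 and 4 of 3157 were. The difference between lines was not tested, and each line is a single line. Lower in wild type but higher in the Sam68 KO line were Cnn1 at 0.50 (-1.83 in wild type), Tagln at 2.24 (-0.80) and Srf at 0.18 (-0.47). Higher in wild type but lower there were Sox1 at -1.17 (1.47), Pax6 at -0.66 (0.76) and Cubn at -1.08 (1.20). The lists of these 3 did not turn as a whole in that line. Of 24 yolk sac endoderm genes 22 were called higher and 2 lower, and of 14 neural progenitor genes 6 were higher and 6 lower. Dnmt3a was at -0.22 (0.79).

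The other genes were lower in wild type and higher in the Sam68 KO line. Perp, a p53 target of desmosomes, was at 1.03 (-0.50), Phgdh, of serine synthesis, at 0.68 (-0.34) and H2-D1, an MHC class I chain, at 0.62 (-0.43). Igf2bp3, an RNA-binding protein, was at 0.71 (-0.13), Hes1 at 0.41 (-0.40), Nr4a1, a nuclear receptor of early responses, at 0.30 (-0.78), Atp6v0d1, of the lysosomal proton pump, at 0.44 (-0.30) and Eef1a1 at 0.29 (-0.30). Several of these wild-type calls depended on the setting. That of Eef1a1 was lost under RLE scaling (adjusted p = 0.0609, edgeR), with the total count only (0.18), in a fit of days 3 and 10 only (0.0554), and without day 3 replicate 2 (0.056) or 3 (0.0583). With the total count only, the calls of Atp6v0d1 (0.0518) and Phgdh (0.0503) were lost and Igf2bp3 had the opposite sign. The Igf2bp3 call was also lost under RLE scaling (0.208), with DESeq2 (0.247) and without day 3 replicate 2 (0.111), among other settings. Tfap2c, a factor of trophoblast and germ cells, was at 0.86 in the Sam68 KO line and at 0.34 in the Quaking KO line (-0.85 in wild type).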

How the results depend on the processing

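The count of called genes was 16026, with 15925 under RLE scaling, 16155 under upper-quartile scaling, 15923 with the total count only, 16139 with DESeq2, 17311 with no filter and 15427 to 16663 with 1 library left out. The split of 8331 higher and 7695 lower turned under upper-quartile scaling (7841 and 8314) and widened with the total count only (9317 and 6606). A separate fit of the 14516 genes whose mean reached 1 CPM called 5103 with a change of 2-fold, where the filter on low counts gave 8386 of 21060. Restricting to protein-coding genes without shared sequence tested fewer genes and gave 5398 called, 2985 changed 2-fold and 521 list members of 593, against 1339 of 1558. With 1 library left out the 2-fold count was 8529 to 8740, the count of list members 1306 to 1375, and the called counts of the Quaking and Sam68 KO lines 15865 to 16197 and 17618 to 17851. The total count alone moved the median of all genes to 0.16.

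Of 534 named genes 2 turned. Igf2bp3 had a log2FC of 0.01 with the total count only (adjusted p = 0.907, edgeR), against -0.13. Nova2, not called at 0.24, ranged from -0.44 without day 10 replicate 1 (adjusted p = 0.0396, edgeR) to 0.55. The cause was not tested. Of 444 named genes called, 12 lost the call without 1 library and 21 under another setting. A replicate block gave 16249 called genes. The same-numbered libraries of the 2 days had deviations correlated at 0.383, 0.0735 and 0.347 over 9634 genes. Day 3 replicate 1 was correlated at -0.351 and -0.302 with day 10 replicates 2 and 3. Day 3 replicate 3 was correlated at -0.439 with day 10 replicate 1 and best with replicate 2 (0.400). The numbers were not taken as pairs in the main fit. Whether replicate 1 of the 2 days shared a batch was not tested. Genes with few day 3 counts limit the precision of the largest folds.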
